A study of Mus musculus with 4 samples.

Results

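The genes described here build and run the secretory route of the cell at its first station, the endoplasmic reticulum (ER). They are 40 of the 17896 genes in the deposited tables, chosen by symbol, and all 40 are present in the tables. They fall into 5 groups by role: 12 genes of targeting, translocation and signal peptide cleavage, 5 subunits of the oligosaccharyltransferase, 15 chaperones and folding enzymes, 6 stress sensors and factors, and 2 receptors that return escaped ER proteins from the Golgi. The study profiled single cells of the ventral prostate of wild-type C57BL6j mice. Hormone pellets were implanted and the gland was taken 2 weeks later. The labels name 2 sham libraries and 2 libraries of a treatment coded te2, a code that the sources used here do not spell out, and they do not say what the sham animals received. Both lobes of an animal shared a tube and gave 1 library, so each group has 2 libraries and each library is 1 animal. All 4 animals share strain and genotype.

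Proteins bound for secretion carry a signal peptide that the signal recognition particle (SRP) reads on the ribosome. The particle docks at its receptor on the ER, the chain is threaded through the Sec61 channel, the signal peptide is clipped off and the oligosaccharyltransferase attaches glycans to asparagines. In the lumen, the Hsp70 chaperone BiP (Hspa5) with its J-domain partners, the lectin chaperones and the protein disulfide isomerases fold the chain, and a load of unfolded chains is sensed by the unfolded protein response. Luminal cells of the ventral prostate are a secretory epithelium that exports large amounts of protein, among them the spermine-binding protein Sbp and the protease inhibitor Spink1. Basal cells line the duct beneath them, and proximal cells lie in the duct segments nearer the urethra.

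Cells were kept with at least 500 UMIs (unique molecular identifiers, 1 per captured transcript) and at most 20% mitochondrial counts, which left 1638 and 2017 sham cells and 2324 and 2112 te2 cells. Each was put in a class by the share of its UMIs from a few gate genes, none of which is among the 40. The luminal class holds cells with at least 10% Sbp and Spink1 and counted 1057 and 1292 cells in sham and 392 and 485 in te2. The proximal class (Krt4, Wfdc2 and Cxcl17) counted 35 and 169 cells in sham and 636 and 376 in te2, and the basal class (Krt5, Krt14 and Krt15) 44 and 160 in sham and 591 and 573 in te2. There were 86 to 237 fibroblasts and 56 to 103 macrophages per library. Between 11.9% and 22.2% of the kept cells passed no gate. The wider marker list of each class was highest in that class in every library. Each list includes the gate genes of its class, so this ranking follows in part from the gates.

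Several measurements of these classes stand beside all results that follow. Every class was deeper in te2: the median luminal cell carried 1551 and 2455 UMIs in the sham animals, 8265.5 and 10359 in the te2 animals. In the luminal class, the 6 proximal markers summed to 141 and 104 CPM (counts scaled to a common library total) in sham and 2012 and 2042 CPM in te2, and 40.3% and 32.8% of te2 luminal cells lay within 2 times the gate against 15.5% and 19.5% in sham. The same markers summed to 88.3 and 671 CPM in sham and 2145 and 1712 CPM in te2 in the basal class, and the 6 basal markers to 176 and 203 CPM in sham and 546 and 427 CPM in te2 in the proximal class. Outside the luminal class, Sbp and Spink1 took 1.57% to 4.43% of UMIs in sham and 0.183% to 0.926% in te2. In sham replicate 1, 21 cells of the luminal class carried 3 or more UMIs of the immunoglobulin genes Jchain, Igkc and Ighm, and the luminal classes of the other 3 libraries had none. Of the basal cells, 23.1% to 54.1% per library also passed a later gate, and 20% of the 35 proximal cells of sham replicate 1 passed theirs on 1 UMI. The libraries share 15 cell barcodes. The part of these differences in the results was not tested, except where a recount is given.

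For each class, the raw UMIs of all its cells in a library were added up, and these sums were compared between te2 and sham with edgeR's quasi-likelihood test with Benjamini-Hochberg adjustment over all genes tested. A gene is called higher or lower below an adjusted p of 0.05. The shares of all genes called that stand beside a count are those of edgeR at this threshold. No share of all genes was taken at an unadjusted p, so counts at an unadjusted p have none to be set against. No share of all genes was taken for groups without overlap either. Where the animals of a group are said to lie above or below the others, this describes the values of that gene. It is no further support for its call. Values are CPM scaled within a class, given for replicates 1 and 2 in that order, and errors beside a log2 change are standard errors. Gene counts compare one gene between libraries, not different genes with each other.

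In luminal cells genes of the secretory machinery were called in both directions. Of the 40 genes, 15 were higher and 5 lower in te2, where 18% and 14.1% of the 10976 genes tested were called higher and lower (32.1% in all), so the share of lower genes was no larger among the 40 than among all genes. The lower count was 2 without te2 replicate 1, 8 without sham replicate 2 and 7 without te2 replicate 2, and the higher count lay between 11 and 17 with each library left out. At an unadjusted p under 0.05, 18 were higher and 8 lower. DESeq2 called 12 higher and 4 lower, where it called 1853 of all 10976 genes, 1145 of them higher. By role, 5 of 12 targeting and translocation genes, 3 of 5 oligosaccharyltransferase genes and 7 of 15 folding genes were higher. The 5 lower genes were the channel subunit Sec61a1, the signal peptidase gene Spcs3, the disulfide isomerase P4hb, the stress factor Atf4 and the sensor Atf6. The median log2 change over the 40 genes was 0.19, beside -0.01 over all genes tested. Under all 17 settings run, 12 of the 20 kept their call: Sec61a1, Sec61b, Ssr2, Ssr4, Spcs2, Ddost, Dad1, Hsp90b1, Pdia3, Sdf2l1, Dnajb11 and Atf6. Without the 21 cells with immunoglobulin UMIs the count was again 20, and with each gate at 2 times its threshold it was 18.

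**Figure D1:**
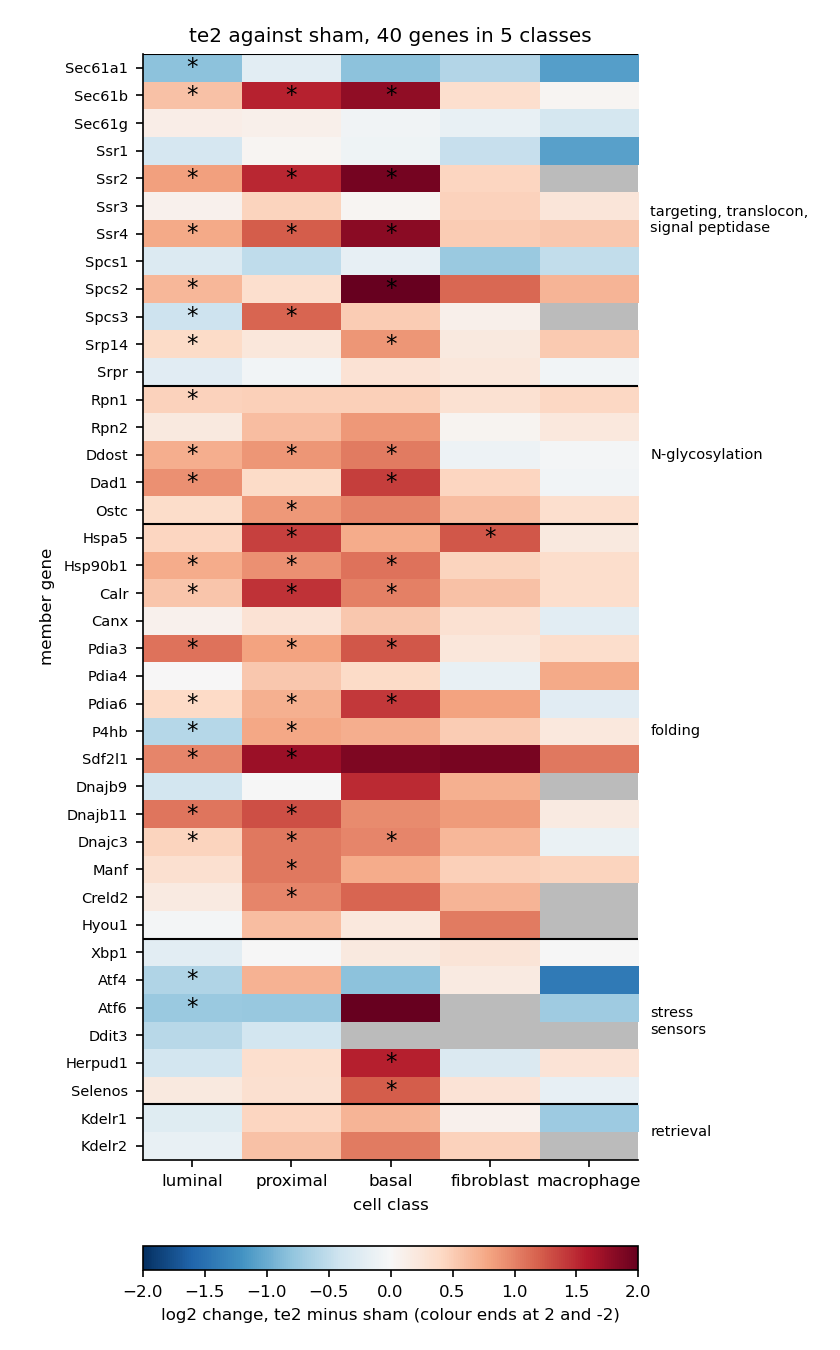
Log2 change of the 40 genes in te2 against sham, by cell class. Rows are genes in their 5 roles, columns are classes, red is higher and blue lower in te2, stars mark genes past an adjusted p of 0.05 (edgeR), and grey cells were not tested or have a group at 0. Starred cells are red and blue in the luminal column (15 higher, 5 lower) and red in the proximal (17), basal (14) and fibroblast (1) columns, and the macrophage column has none.

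Within the targeting and translocation group of luminal cells, 5 of 12 genes were higher and 2 lower, beside 18% higher and 14.1% lower of all genes tested. Sec61b, a small subunit of the Sec61 channel, stood at 1021 and 1167 CPM in sham and 1568 and 1733 CPM in te2 (log2 change 0.59 ± 0.14, adjusted p = 0.00502). Sec61a1, which encodes the pore-forming subunit of the same channel, stood at 182 and 224 CPM in sham and 112 and 118 CPM in te2 (log2 change -0.82 ± 0.14, adjusted p = 0.000486). The channel's subunits thus moved in opposite directions, with no overlap between groups for either gene, while the third subunit gene, Sec61g, differed by 0.13 ± 0.13 and its groups overlapped.

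The translocon-associated protein (TRAP) complex sits beside the channel and helps some signal peptides to open it. Its subunit gene Ssr4 stood at 702 and 807 CPM in sham and 1161 and 1380.1 CPM in te2 (log2 change 0.75 ± 0.14, adjusted p = 0.00119). For Ssr2 the values were 62.8 and 59.8 CPM in sham and 96.5 and 119 CPM in te2 (log2 change 0.82 ± 0.14, adjusted p = 0.000745). Both te2 animals were above both sham animals for these 2 genes, whereas Ssr1 (-0.33 ± 0.13, adjusted p = 0.0651) and Ssr3 (0.08 ± 0.14, adjusted p = 0.698) of the same complex did not pass.

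Signal peptidase, which cuts the signal peptide from the growing chain, was also split. Spcs2 went from 365 and 378 CPM in sham to 559.7 and 611 CPM in te2 (log2 change 0.66 ± 0.12, adjusted p = 0.00124). Spcs3 went from 121 and 105 CPM in sham to 79.0 and 89.1 CPM in te2 (log2 change -0.42 ± 0.14, adjusted p = 0.0305), and Spcs1 did not pass (log2 change -0.28 ± 0.12, adjusted p = 0.105). The fall of Spcs3 missed the threshold with DESeq2 (adjusted p = 0.118), in the fits without TMM factors or the low-count filter, and with sham replicate 1, te2 replicate 1 or te2 replicate 2 left out (adjusted p from 0.0532 to 0.241). Srp14, a protein of the SRP domain that slows translation, rose from 170.4 and 203 CPM in sham to 226 and 263 CPM in te2 (log2 change 0.39 ± 0.14, adjusted p = 0.0437). That call was lost under 6 of 16 alternatives, among them DESeq2 (adjusted p = 0.108) and the fits without sham replicate 1 (0.193) or te2 replicate 2 (0.37). In the same targeting step, the gene for the SRP receptor, Srpr, did not pass (-0.23 ± 0.13).

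The 5 oligosaccharyltransferase genes all lay above 0 in luminal cells, and 3 passed, where 18% of all genes tested were called higher. Dad1, a small subunit that the complex needs to hold together, had the largest change of the 5, with 243 and 268 CPM in sham and 432 and 534 CPM in te2 (log2 change 0.92 ± 0.14, adjusted p = 0.000215). Ddost rose from 94.3 and 86.5 CPM in sham to 151 and 148 CPM in te2 (log2 change 0.73 ± 0.13, adjusted p = 0.000726). Rpn1, which presents some substrates to the enzyme, rose from 259.7 and 248.6 CPM in sham to 356 and 343 CPM in te2 (log2 change 0.46 ± 0.12, adjusted p = 0.0102), a call that was lost without te2 replicate 1 (adjusted p = 0.0679) or te2 replicate 2 (0.053). For each of these genes the lower te2 animal was above the higher sham animal. Ostc (0.36 ± 0.14, adjusted p = 0.0584) and Rpn2 (0.20 ± 0.12, adjusted p = 0.237) did not pass, and Ostc passed under 6 of 16 alternatives. As a sum, the 5 genes took 0.137% and 0.138% in sham and 0.19% and 0.211% in te2 of luminal UMIs other than those of Sbp and Spink1.

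Of the 15 folding genes, 7 were higher and 1 lower in luminal cells, beside 18% higher and 14.1% lower of all genes tested. Pdia3, the disulfide isomerase that works with the lectin chaperones on glycoproteins, had the largest change of the 40 genes: 367 and 262 CPM in sham and 672 and 657 CPM in te2 (log2 change 1.08 ± 0.15, adjusted p = 0.000138). Dnajb11, a J-domain partner of BiP, stood at 75.4 and 63.7 CPM in sham and 144 and 148 CPM in te2 (log2 change 1.07 ± 0.14, adjusted p = 5.99e-05). Sdf2l1, an ER protein that forms a complex with Dnajb11, stood at 107 and 90.7 CPM in sham and 161 and 226 CPM in te2 (log2 change 0.98 ± 0.16, adjusted p = 0.00048). In all 3 both te2 animals lay above both sham animals.

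The other rises among the chaperones were smaller. Hsp90b1, the ER form of Hsp90, stood at 761 and 519 CPM in sham and 1057 and 1071 CPM in te2 (log2 change 0.74 ± 0.16, adjusted p = 0.00372). Calr, the soluble lectin chaperone calreticulin, stood at 462 and 364 CPM in sham and 603 and 603 CPM in te2 (log2 change 0.55 ± 0.14, adjusted p = 0.00788). Both genes had their lowest value in sham replicate 2. Dnajc3 (0.45 ± 0.15, adjusted p = 0.0364) and the isomerase gene Pdia6 (0.40 ± 0.14, adjusted p = 0.0469) also rose. The call of Pdia6 was lost under 10 of 16 alternatives (adjusted p from 0.0519 to 0.282), that of Dnajc3 under 3, and that of Calr with gates at 2 times their threshold (0.0731).

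P4hb, the classical protein disulfide isomerase and a subunit of prolyl 4-hydroxylase, was the one folding gene that fell in luminal cells, with 586 and 469 CPM in sham and 324 and 387 CPM in te2 (log2 change -0.57 ± 0.14, adjusted p = 0.00837). Both te2 animals were below both sham animals, and the call was lost without te2 replicate 1 (log2 change -0.43, adjusted p = 0.0846). Hspa5, the gene of BiP, stood at 1031 and 700.3 CPM in sham and 1126 and 1193 CPM in te2 and did not pass (log2 change 0.42 ± 0.17, adjusted p = 0.0668). Its sham animals differed more from each other than the higher of them did from te2, and without sham replicate 1 the change was 0.74 (adjusted p = 0.000392). It passed under 5 of 16 alternatives. That animal holds the luminal cells with immunoglobulin UMIs, and without those cells the change was 0.42 (adjusted p = 0.0649).

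Manf, a small BiP-binding protein that can be secreted, went from 482 and 387 CPM in sham to 505 and 577 CPM in te2 (log2 change 0.32 ± 0.14, adjusted p = 0.101). It passed without sham replicate 1 (log2 change 0.49, adjusted p = 0.0147). For Creld2, an ER protein with isomerase-like activity, the values were 147 and 88.3 CPM in sham and 133 and 133 CPM in te2 (log2 change 0.19 ± 0.19, adjusted p = 0.478), and the te2 animals lay between the sham animals. Without sham replicate 1 Creld2 changed by 0.60 (adjusted p = 0.00512), and without sham replicate 2 by -0.14. The isomerase gene Pdia4 (0.01 ± 0.15), the exchange factor gene Hyou1 (-0.03 ± 0.16), the lectin chaperone gene Canx (0.09 ± 0.14) and the J-domain gene Dnajb9 (-0.36 ± 0.22) had overlapping groups, and their adjusted p lay between 0.232 for Dnajb9 and 0.955 for Pdia4.

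No stress sensor or factor was higher in luminal cells, and 2 of 6 were lower, beside 18% higher and 14.1% lower of all genes tested. Atf4, the factor whose translation rises when the kinase PERK is active, stood at 69.1 and 76.7 CPM in sham and 43.9 and 52.2 CPM in te2 (log2 change -0.60 ± 0.14, adjusted p = 0.00625). Atf6, the membrane-bound sensor that is cut in the Golgi to free a transcription factor, stood at 40.5 and 34.1 CPM in sham and 21.5 and 22.5 CPM in te2 (log2 change -0.75 ± 0.17, adjusted p = 0.00429). Both te2 animals were below both sham animals for the 2 genes, and the fall of Atf4 missed the threshold without te2 replicate 1 (log2 change -0.47, adjusted p = 0.0808). Xbp1, the factor made active by splicing through the sensor IRE1, stood at 189 and 195 CPM in sham and 163 and 169 CPM in te2 (log2 change -0.21 ± 0.12, adjusted p = 0.215); gene counts do not show the splicing. Herpud1, a membrane protein of ER-associated degradation that is induced under ER stress, stood at 406 and 333 CPM in sham and 246 and 328 CPM in te2 (log2 change -0.36 ± 0.15, adjusted p = 0.0884). It passed as a fall without sham replicate 2 (-0.49, adjusted p = 0.0137) and without te2 replicate 2 (-0.60, adjusted p = 0.015).

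Ddit3, the stress factor CHOP, was near the detection limit: its 2 sham sums hold 37 and 33 UMIs, its te2 sums 15 and 47. Its change was -0.55 ± 0.36 (adjusted p = 0.257), and it passed as a fall without te2 replicate 2 (-1.29, adjusted p = 0.0257). Selenos, a selenoprotein of the degradation complex, did not pass (0.19 ± 0.13, adjusted p = 0.285). Neither did the retrieval receptors Kdelr1 (121 and 129 CPM in sham and 105 and 106 CPM in te2; -0.25 ± 0.13, adjusted p = 0.152) and Kdelr2 (-0.15 ± 0.14, adjusted p = 0.457).

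**Figure D2:**
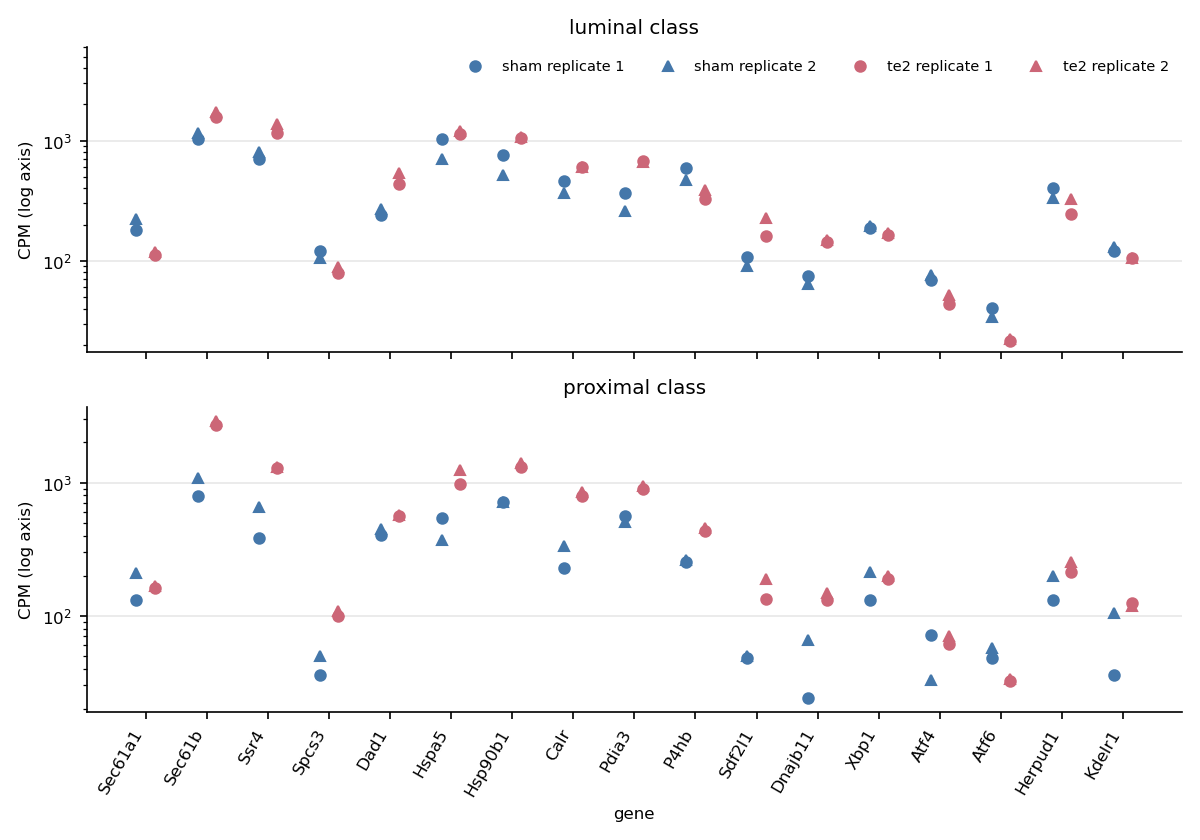
CPM of 17 of the genes in each library, on a log axis, in the luminal class (top) and the proximal class (bottom). Blue marks are sham animals, red marks te2 animals, circles replicate 1 and triangles replicate 2. In luminal cells Sec61a1, P4hb, Atf4 and Atf6 have both red marks below both blue marks, while Sec61b, Pdia3 and Dnajb11 have them above. In proximal cells P4hb has both red marks above the blue ones.

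Some ER chaperone genes carry in their promoters an element known to be bound by stress factors, and it is shown here for members whose RNA was compared above. Promoters were taken from RefSeq (build GRCm38.p6), 250 bases before to 50 bases after a gene's start. Of the 40 genes, 32 had an entry, with 33 promoters. Atf6, Hyou1, Kdelr2, Manf, Ostc, Sec61a1, Spcs3 and Ssr2 had none. The ER stress element was searched on both strands as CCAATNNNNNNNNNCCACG. It was found in 7 of the 32 genes (Calr, Canx, Creld2, Dnajc3, Hsp90b1, Hspa5 and Pdia6) and in 0.119% of the 32851 promoters of the table. All 7 belong to the folding group. ER stress element II, searched as ATTGGNCCACG, was found in Dnajb11 and Herpud1 and in 0.0365% of all promoters. The 2 motifs share the CCACG end. The unfolded protein response element TGACGTGG (0.676% of all promoters) and the amino acid response element TGATGNAAT (0.965%) had no match in the 33 promoters, which says only that these letters are not in these windows.

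The stretches below run 5′ to 3′ in the direction of the gene, with the fixed letters of the motif in capitals. Where the motif lies on the opposite strand, the capitals read CGTGG and ATTGG. Hspa5 is shown from chr2:34772005-34772063 (plus strand), with the motif 65 to 47 bases before the start. Calr is from chr8:84847055-84847113 (minus strand), Hsp90b1 from chr10:86705618-86705676 (minus strand) and chr10:86705513-86705571 (minus strand), Pdia6 from chr12:17266471-17266529 (plus strand) and Canx from chr11:50325780-50325838 (minus strand). Dnajb11 is from chr16:22857843-22857871 (plus strand), where the motif lies just past the start, and Herpud1 from chr8:94386357-94386407 (plus strand).
Hspa5: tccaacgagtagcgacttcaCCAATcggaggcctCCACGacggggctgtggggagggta
Calr: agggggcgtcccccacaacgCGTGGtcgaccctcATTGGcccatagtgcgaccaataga
Hsp90b1, far site: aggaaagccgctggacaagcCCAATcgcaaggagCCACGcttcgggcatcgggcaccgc
Hsp90b1, near site: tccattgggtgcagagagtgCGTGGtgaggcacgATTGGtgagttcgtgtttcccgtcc
Pdia6: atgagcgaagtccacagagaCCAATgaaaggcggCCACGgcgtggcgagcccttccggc
Canx: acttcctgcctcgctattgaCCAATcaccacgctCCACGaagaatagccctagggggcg
Dnajb11: ccggcggcgATTGGcCCACGcctggctgc
Herpud1: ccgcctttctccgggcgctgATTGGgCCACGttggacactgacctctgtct
Of the 7 genes with the first element, 4 were higher in te2 in luminal cells (Hsp90b1, Calr, Pdia6 and Dnajc3), 6 in proximal cells (these 4 with Hspa5 and Creld2), 4 in basal cells (the same as in luminal cells), 1 in fibroblasts (Hspa5) and none in macrophages. Of the 5 folding genes with a promoter entry and neither element (Dnajb9, P4hb, Pdia3, Pdia4 and Sdf2l1), 2 were higher and 1 lower in luminal cells, 3 higher in proximal cells and 1 higher in basal cells. Of all genes tested, 18% were higher in luminal, 5.53% in proximal and 4.94% in basal cells. Canx, whose stretch holds the same letters, passed in no class. Of the 2 genes with the second element, Dnajb11 was higher in both of these classes and Herpud1 in neither. Herpud1 was higher in basal cells. A match is a description of the letters, and no binding was measured.

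In proximal cells 17 of the 40 genes were higher in te2 and none lower, where 5.53% and 4.78% of the 10068 genes tested were called higher and lower (10.3% in all). By role these were 11 of 15 folding genes, 4 of 12 targeting and translocation genes, 2 of 5 oligosaccharyltransferase genes, and no stress factor or retrieval receptor. The median log2 change was 0.60 over the 40 genes and 0.06 over all genes tested. Counting at an unadjusted p under 0.05, 21 were higher and 2 lower. DESeq2 called 9 higher and none lower, where it called 270 of all 10068 genes, 154 of them higher. The count fell to 4 of the 27 that could be tested when the sums were thinned to the smallest library, to 6 when sham replicate 2 was left out, to 9 for te2 replicate 1 and to 4 for te2 replicate 2. Without sham replicate 1, which has 35 proximal cells, 16 were higher and 1, Spcs1, was lower (log2 change -0.62, adjusted p = 0.0409). Without TMM factors, which correct the totals for genes that dominate a sum, 18 were higher and Spcs1 was lower (-0.57, adjusted p = 0.02). The count was 17 higher and none lower after subtraction of a luminal profile scaled to the Sbp and Spink1 counts. Only Sec61b and Calr were called under all 18 settings.

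Calr stood at 227 and 332 CPM in sham and 791 and 851 CPM in te2 in proximal cells (log2 change 1.45 ± 0.24, adjusted p = 4.15e-06). BiP (Hspa5) stood at 538 and 368 CPM in sham and 966 and 1234 CPM in te2 (log2 change 1.37 ± 0.26, adjusted p = 4.24e-05). For Sdf2l1 the values were 47.9 and 49.4 CPM in sham and 134 and 189.9 CPM in te2 (log2 change 1.71 ± 0.30, adjusted p = 9.23e-06). In these 3 genes the lower te2 animal was well above the higher sham animal. The sham values of Sdf2l1 rest on 4 and 18 UMIs, and its call was lost without sham replicate 2 (adjusted p = 0.153). That of Hspa5 was lost without te2 replicate 2 (log2 change 1.14, adjusted p = 0.102) and with thinned sums (0.81, adjusted p = 0.0885).

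The BiP partners Dnajc3 (1.06 ± 0.23, adjusted p = 0.000615) and Dnajb11 (1.28 ± 0.28, adjusted p = 0.000624) rose in proximal cells, with calls lost under 4 of 17 and 2 of 16 alternatives. So did Manf, from 227 and 187 CPM in sham to 382 and 442 CPM in te2 (log2 change 1.06 ± 0.23, adjusted p = 0.000415). Manf missed the threshold without sham replicate 2 (adjusted p = 0.14) or te2 replicate 2 (0.234) and with thinned sums (0.206). Hsp90b1 stood at 718 and 713 CPM in sham and 1302 and 1391 CPM in te2 (log2 change 0.91 ± 0.26, adjusted p = 0.0106), with lost calls without te2 replicate 1 (0.142) or te2 replicate 2 (0.347). The isomerase genes P4hb (0.78 ± 0.22, adjusted p = 0.0106), Pdia3 (0.80 ± 0.24, adjusted p = 0.0172) and Pdia6 (0.72 ± 0.24, adjusted p = 0.0345) were also higher. Of the 17 alternatives run, 7 ended the call of P4hb, 5 that of Pdia3 and 8 that of Pdia6. Creld2 was higher too (35.9 and 49.4 CPM in sham and 86.1 and 99.1 CPM in te2; log2 change 0.98 ± 0.31, adjusted p = 0.0271), from 3 and 18 sham UMIs, and lost its call under 8 of 16 alternatives, among them each of the 4 with a library left out. Pdia4 (0.53 ± 0.22, adjusted p = 0.119), Hyou1 (0.62 ± 0.33, adjusted p = 0.241), Canx and Dnajb9 did not pass.

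At the translocon of proximal cells, Sec61b stood at 789.5 and 1089 CPM in sham and 2687 and 2914 CPM in te2 (log2 change 1.53 ± 0.31, adjusted p = 0.000145). Ssr2 was at 35.9 and 52.1 CPM in sham and 135 and 142 CPM in te2 (log2 change 1.502 ± 0.29, adjusted p = 7.84e-05) and Ssr4 at 383 and 650.2 CPM in sham and 1275 and 1304 CPM in te2 (log2 change 1.22 ± 0.26, adjusted p = 0.000357). Spcs3, which was lower in luminal cells, was at 35.9 and 49.4 CPM in sham and 100.1 and 109 CPM in te2 (log2 change 1.16 ± 0.30, adjusted p = 0.00514), with 3 and 18 UMIs in sham, and its call was lost under 5 of 16 alternatives. All 4 had te2 animals above sham animals, and the calls were lost without sham replicate 2 for Ssr2 (adjusted p = 0.0658) and without te2 replicate 2 for Ssr4 (0.0649). Sec61a1 had overlapping groups (-0.22 ± 0.21, adjusted p = 0.596), and Spcs1 did not pass (-0.51 ± 0.20, adjusted p = 0.0951). Neither did Srp14 (0.23 ± 0.21, adjusted p = 0.557).

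Among the oligosaccharyltransferase genes of proximal cells, Ddost (0.88 ± 0.23, adjusted p = 0.00485) and Ostc (0.87 ± 0.25, adjusted p = 0.0139) were higher. Ddost lost its call under 5 of 17 alternatives, those with DESeq2 (0.115), thinned sums (0.327) or sham replicate 2 (0.156), te2 replicate 1 (0.182) or te2 replicate 2 (0.256) left out. Ostc lost its call with DESeq2 (0.278), without sham replicate 2 (0.548), te2 replicate 1 (0.159) or te2 replicate 2 (0.352), and with a replicate block (0.0696). Dad1 stood at 407 and 444 CPM in sham and 556 and 568 CPM in te2 (log2 change 0.38 ± 0.22, adjusted p = 0.303) and Rpn1 at 251 and 359 CPM in sham and 445 and 471 CPM in te2 (log2 change 0.48 ± 0.22, adjusted p = 0.153), neither past the threshold although te2 animals were above sham animals. Of the stress factors, Xbp1 (-0.01 ± 0.21) and Atf4 (0.69 ± 0.35) had overlapping groups. Atf6 (47.9 and 57.6 CPM in sham and 32.1 and 33.7 CPM in te2; log2 change -0.76 ± 0.36, adjusted p = 0.177) and Herpud1 (0.34 ± 0.22, adjusted p = 0.37) did not pass, and Ddit3 had 1 and 5 UMIs in sham. The receptors Kdelr1 (0.43 ± 0.26, adjusted p = 0.317) and Kdelr2 (0.59 ± 0.32, adjusted p = 0.268) did not pass either.

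The response of luminal cells was then compared with that of proximal cells in 1 model over the 5 classes and 4 libraries, as the difference of their log2 changes. Of 39 genes tested, 7 had a lower response in luminal cells and none a higher one, where 2.49% and 2.02% of the 8803 genes tested were called lower and higher (4.51% in all). The 7 were P4hb at -1.43 ± 0.26 (adjusted p = 0.00011), Spcs3 at -1.70 ± 0.34 (adjusted p = 0.000556), Sec61b at -1.12 ± 0.25 (adjusted p = 0.00318), Hspa5 at -1.03 ± 0.27 (adjusted p = 0.0147), Atf4 at -1.46 ± 0.39 (adjusted p = 0.0149), Calr at -1.004 ± 0.27 (adjusted p = 0.0153) and Sec61a1 at -0.83 ± 0.23 (adjusted p = 0.0225). For P4hb and Spcs3 the animals moved in opposite directions, lower in te2 in luminal cells and higher in proximal cells. For Sec61b and Calr both classes rose, and proximal cells by more. The median difference was -0.56 over the 39 genes and -0.18 over all genes tested. That of all genes was 0.06 without TMM factors and -0.02 with DESeq2, and the share of calls that were higher was 44.8% with TMM factors, 74.8% without TMM factors, 66.7% with DESeq2 and 60.3% with the gate genes left out of the scaling. The count of 7 became 3 without TMM factors, 3 with gates at 2 times their threshold, 4 without the filter on low counts and 2 with thinned sums. Leaving out sham replicate 1 gave 4, sham replicate 2 gave 3, te2 replicate 1 gave 0 and te2 replicate 2 gave 2. With all 4 libraries kept, P4hb and Sec61b were called under all 13 settings. The call was lost under 11 of 16 alternatives for Sec61a1, 8 of 16 for Hspa5, 7 of 16 for Calr, 6 of 15 for Atf4, 2 of 15 for Spcs3, 2 of 16 for Sec61b and 1 of 16 for P4hb.

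**Figure D3:**
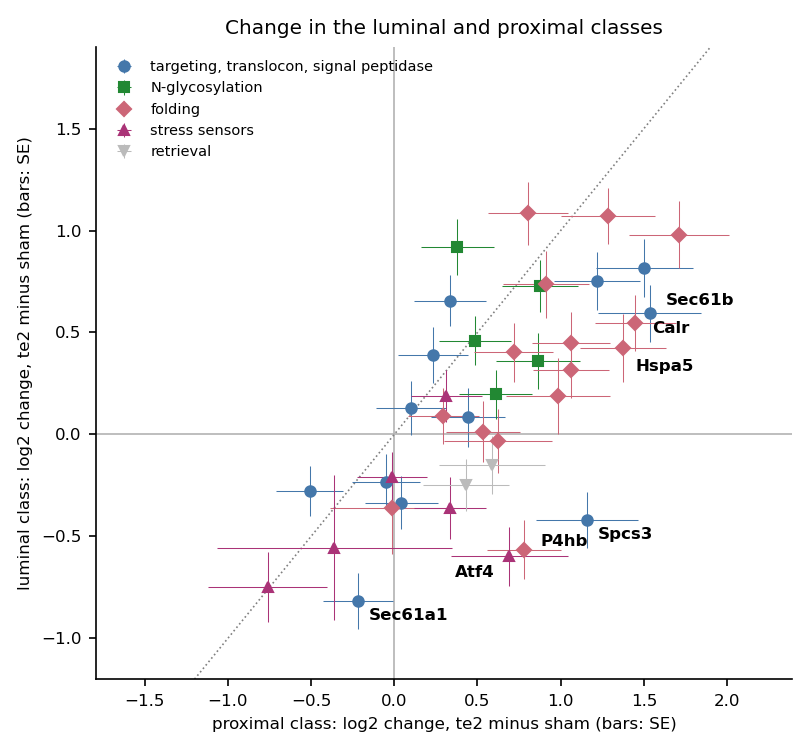
Log2 change in te2 against sham of each of the 40 genes in the proximal class (horizontal) and the luminal class (vertical), with standard errors as bars, and shapes for the 5 roles. The dotted line marks equal change, and the genes in bold type are the 7 whose difference between the classes passed the test. All 7 lie below the line, and P4hb, Spcs3 and Atf4 lie at the lower right, with luminal changes of -0.57, -0.42 and -0.60.

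In basal cells 14 of the 39 genes tested were higher in te2 and none lower, where 4.94% and 2.77% of the 9132 genes tested were called higher and lower (7.71% in all). Their sham values rest on few counts, since the 2 sham sums hold 45286 and 183238 UMIs against 1547448 and 1706389 in te2. Sec61b stood at 295 and 351 CPM in sham and 1223 and 1049.7 CPM in te2 (log2 change 1.77 ± 0.27, adjusted p = 1.17e-05). Ssr4 was at 78.6 and 244 CPM in sham and 707 and 673 CPM in te2 (log2 change 1.80 ± 0.29, adjusted p = 2.87e-05) and Spcs2 at 58.9 and 113 CPM in sham and 397 and 422 CPM in te2 (log2 change 2.04 ± 0.32, adjusted p = 1.76e-05). For these translocon genes both te2 animals were more than 2 times above both sham animals. Ssr2 (1.92 ± 0.46, with no UMI in sham replicate 1) and Srp14 (0.88 ± 0.28) were higher as well.

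Dad1 rose in basal cells from 157 and 232 CPM in sham to 498 and 598 CPM in te2 (log2 change 1.38 ± 0.28, adjusted p = 0.000724), and Ddost by 1.04 ± 0.34. Among the folding genes 5 of 15 passed, led by Pdia6 at 216 and 202 CPM in sham and 551 and 546 CPM in te2 (log2 change 1.41 ± 0.27, adjusted p = 0.000453) and Pdia3 (1.25 ± 0.26, adjusted p = 0.00111), with Hsp90b1, Calr and Dnajc3 at log2 changes of 1.08 ± 0.26, 1.01 ± 0.28 and 0.98 ± 0.30. BiP did not pass (log2 change 0.75 ± 0.25, adjusted p = 0.0576). Of all genes tested in basal cells, 4.94% were called higher. The degradation genes Herpud1 (log2 change 1.55 ± 0.44, adjusted p = 0.0198) and Selenos (log2 change 1.21 ± 0.29, adjusted p = 0.00528) were higher. The sham sums of Herpud1 hold 2 and 7 UMIs. The calls of Herpud1 (9 of 16 alternatives), Ddost (10 of 16), Srp14 (9 of 17), Calr (8 of 17), Dnajc3 (8 of 17), Selenos (6 of 17), Hsp90b1 (3 of 17), Ssr2 (3 of 16), Dad1 (1 of 17) and Pdia6 (1 of 17) were lost under the settings counted in brackets.

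The basal count was 6 with DESeq2, which called 153 of all 9132 genes, 85 of them higher. It was 9 with gates at 2 times their threshold, 8 of the 15 that could be tested with thinned sums, and 20 after subtraction of the luminal profile. With sham replicate 1 left out it was 9, with sham replicate 2 left out 8, with te2 replicate 1 left out 7 and with te2 replicate 2 left out 5. Sec61b, Ssr4, Spcs2 and Pdia3 were called under all 18 settings. In the joint model the luminal response was lower than the basal one for 5 of 39 genes, where 0.795% of all genes were called lower and 0.5% higher (1.3% in all): Sec61b (-1.32 ± 0.30 (adjusted p = 0.00709)), Spcs2 (-1.49 ± 0.36 (adjusted p = 0.0185)), Herpud1 (-1.96 ± 0.49 (adjusted p = 0.0233)), P4hb (-1.32 ± 0.34 (adjusted p = 0.0275)) and Ssr4 (-1.30 ± 0.34 (adjusted p = 0.0299)). The median difference was -0.56 over the 39 genes and -0.20 over all genes tested. No alternative was run for this difference between classes.

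Fibroblasts, which make the collagen of the stroma, showed 1 called gene of 38 tested, where 0.764% of the 4450 genes tested were called higher and 1.3% lower (2.07% in all). That gene was Hspa5, at 801 and 675 CPM in sham and 1659 and 1877 CPM in te2 (log2 change 1.25 ± 0.22, adjusted p = 0.0185), and it was called under all 18 settings. Both te2 animals were more than 2 times above both sham animals. At an unadjusted p under 0.05, 8 genes were higher and 1 lower. DESeq2 called 1, where it called 68 of all 4450 genes, 27 of them higher. Sdf2l1 (log2 change 1.899 ± 0.54, adjusted p = 0.0937), Pdia6 (log2 change 0.80 ± 0.23, adjusted p = 0.0934) and Spcs2 (log2 change 1.14 ± 0.27, adjusted p = 0.0517) missed the threshold. Of all calls, 37.0% were higher with TMM factors and 51.5% without. The luminal response was lower than the fibroblast one for Hspa5 (-0.99 ± 0.27 (adjusted p = 0.029)) and P4hb (-1.27 ± 0.30 (adjusted p = 0.0073)), where 1.52% of all genes were called lower (2.53% in all). No alternative was run for this difference either. Its median was -0.35 over the members tested and -0.08 over all genes tested.

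In macrophages no gene of 33 tested was called by edgeR or DESeq2, where 1.93% of the 2173 genes tested were called higher and 1.75% lower (3.68% in all), and at an unadjusted p under 0.05 none was higher and 3 were lower. The sums hold 51642 to 297852 UMIs per library. Hspa5 stood at 806 and 799 CPM in sham and 853 and 992 CPM in te2 (log2 change 0.20 ± 0.31, adjusted p = 0.77) and Atf4 at 115 and 125 CPM in sham and 45.4 and 42.2 CPM in te2 (log2 change -1.42 ± 0.53, adjusted p = 0.139). Sdf2l1 was the 1 gene called when sham replicate 1 or te2 replicate 1 was left out. Of all calls in macrophages, 52.5% were higher with edgeR and 64.7% with DESeq2.

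**Figure D4:**
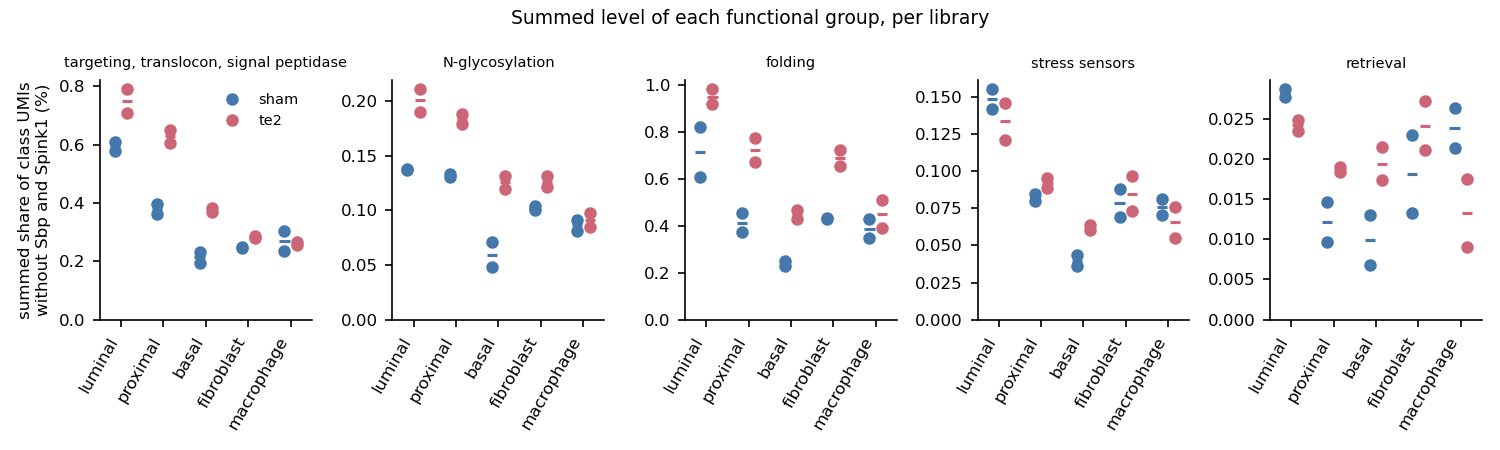
Summed share of class UMIs, other than those of Sbp and Spink1, taken by the genes of each role, in percent from 0, by class. Each point is 1 library (blue sham, red te2) and each short line the mean of 2. The folding genes took 0.822% and 0.609% in sham and 0.917% and 0.984% in te2 in luminal cells and 0.455% and 0.372% in sham and 0.673% and 0.776% in te2 in proximal cells, and the stress sensors 0.155% and 0.142% in sham and 0.121% and 0.146% in te2 in luminal cells.

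Levels were set side by side across classes on a common CPM scale, from the 20 class sums scaled together. The order of the classes depends on this scaling. In sham the luminal class had the highest mean level of 37 of the 40 genes with TMM factors and of 17 without them. In te2 it had that of 31 genes with and 12 without, where the proximal class had that of 15. Tested within sham, 31 of 39 genes were higher in luminal than in proximal cells and none lower, where 9.5% and 6.59% of all genes were called higher and lower (16.1% in all). Within te2, 21 were higher and none lower, where 9.13% and 10% of all genes were (19.1% in all). These level calls change with the scaling too, and Sbp and Spink1 take 25.3% to 31.5% of luminal UMIs. Without TMM factors the median difference of all genes moved from 0.17 to -0.61 in sham and from -0.01 to -0.55 in te2. The members' calls were then 10 higher and 4 lower in sham, with a median of 0.16, and 7 higher and 11 lower in te2, with a median of -0.13. Of all calls, 59.0% were higher in sham with TMM factors, 7.15% without them and 41.8% with DESeq2, and in te2 47.7% with and 3.41% without them. Ssr4, Hspa5, P4hb, Dnajc3, Manf, Creld2 and Herpud1 were called higher in sham under all 17 settings, and Sdf2l1, Manf and Creld2 in te2. The te2 count was 10 with thinned sums, 7 without te2 replicate 1 and 3 without te2 replicate 2.

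With TMM factors, Hspa5 was highest in luminal cells in sham, at 1599 and 1094 CPM on the common scale, then in fibroblasts (685 and 547), macrophages (570.4 and 555), proximal cells (494 and 334) and basal cells (217 and 359.7). The last 2 overlapped each other, as did fibroblasts and macrophages. In te2 luminal cells (1676 and 1759) and fibroblasts (1459 and 1701) overlapped at the top, followed by proximal cells (927 and 1183), macrophages (687 and 793) and basal cells (501 and 570.1). Without TMM factors luminal cells had the highest values in sham (993 and 692 CPM, against 673 and 569 in fibroblasts), but in te2 fibroblasts (1482 and 1673) were above luminal (1165 and 1188) and proximal cells (905 and 1190), and the last 2 overlapped. The luminal minus proximal difference of Hspa5 was 1.74 ± 0.21 (adjusted p = 1.32e-09) in sham and 0.71 ± 0.17 (adjusted p = 0.00149) in te2, and without TMM factors it was 0.91 (adjusted p = 0.000232) and 0.17 (adjusted p = 0.348).

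P4hb stood in sham at 909 and 733 CPM in luminal cells, 230.4 and 237 in proximal cells, 227 and 169.7 in fibroblasts, 190.1 and 121 in macrophages and 100.3 and 115 in basal cells. In te2 the luminal values were 483 and 571 and the proximal ones 414 and 436. The luminal minus proximal difference of P4hb was 1.74 ± 0.21 (adjusted p = 6.77e-10) in sham and 0.31 ± 0.16 (adjusted p = 0.185) in te2. Without TMM factors these were 0.93 (adjusted p = 0.000103) and -0.24 (adjusted p = 0.108). Sec61b went from a luminal lead in sham (1584 and 1823 CPM against 724 and 989.9 in proximal cells) to no difference past the threshold in te2 (2333 and 2556 against 2577 and 2793, difference -0.14 ± 0.17 (adjusted p = 0.67)). Without TMM factors the luminal lead of Sec61b in sham was not past the threshold (0.14, adjusted p = 0.554), and in te2 it was lower in luminal cells (-0.68, adjusted p = 0.000122).

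Manf and Creld2 kept a luminal lead in both groups. Manf stood at 748 and 606 in sham and 751 and 851 in te2 in luminal cells and 208 and 169.6 in sham and 366 and 424 in te2 in proximal cells, differences of 1.87 ± 0.23 (adjusted p = 1.7e-09) in sham and 1.02 ± 0.16 (adjusted p = 1.7e-06) in te2. Herpud1 differed by 1.72 ± 0.21 (adjusted p = 1.29e-09) in sham and 0.93 ± 0.13 (adjusted p = 4.66e-08) in te2. Dad1 (0.04 ± 0.20 (adjusted p = 0.923)) and Pdia3 (-0.01 ± 0.21 (adjusted p = 0.989)) did not differ past the threshold between luminal and proximal cells in sham. Against the basal, fibroblast and macrophage classes the tests were run with TMM factors only, but mean levels were also ranked without them. In sham 8 genes were then highest in fibroblasts and 8 in macrophages, against 2 and 1 with TMM factors. In te2 these were 8 and 4 without and 4 and 2 with them. With TMM factors, 36 of 39 genes were called higher in luminal than in basal cells in sham (14.6% of all genes higher, 11.2% lower, 25.9% in all) and 39 of 39 in te2 (24.3%, 22.9% and 47.2%). Against fibroblasts 29 were higher in sham (19.2% of all genes higher, 18.8% lower, 38% in all) and 28 in te2 (23.1%, 22.2% and 45.3%). Against macrophages 27 were higher in sham (14.9% of all genes higher, 11.7% lower, 26.6% in all), and in te2 35 were higher and Atf6 was lower (25.4%, 19.2% and 44.6%).

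**Figure D5:**
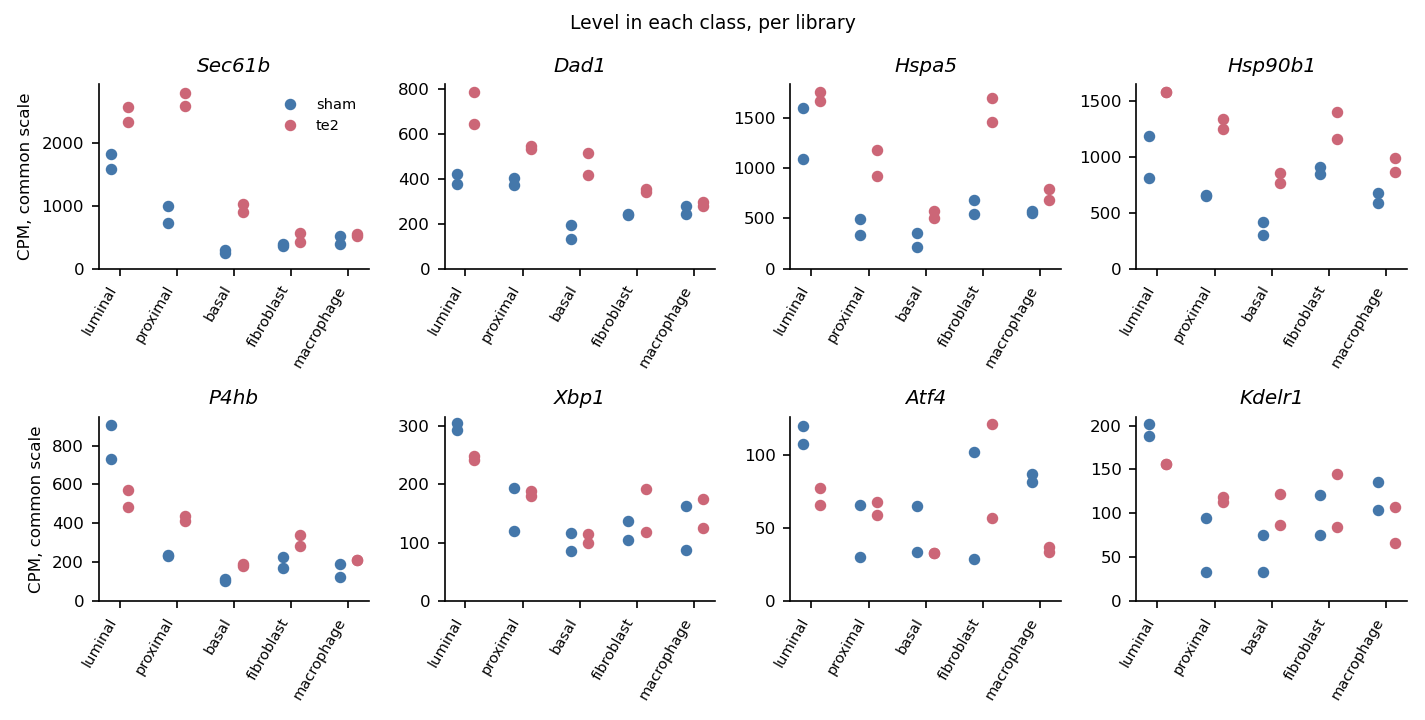
CPM on the common scale of 8 genes in 5 classes, with 1 point per library (blue sham, red te2) and axes from 0. P4hb in luminal cells falls from 909 and 733 to 483 and 571 CPM, Sec61b in proximal cells goes from 724 and 989.9 to 2577 and 2793, and Hspa5 in fibroblasts from 685 and 547 to 1459 and 1701.

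The rest of the pathway was followed with 141 further gene symbols in 6 lists, 138 of them in the tables. Among these symbols, Srpra and Vimp are other names of the members Srpr and Selenos. In luminal cells 28 of 133 tested were higher and 27 lower, in proximal cells 20 higher and 2 lower of 130, in basal cells 19 higher and 1 lower of 118, in fibroblasts none of 92 (16 higher and 3 lower at an unadjusted p under 0.05, none with DESeq2), and in macrophages 1 lower of 43. Of all genes tested, 18% were higher and 14.1% lower in luminal, 5.53% and 4.78% in proximal and 4.94% and 2.77% in basal cells. The shares were 0.764% and 1.3% in fibroblasts and 1.93% and 1.75% in macrophages. DESeq2 called fewer of the further genes. It called 20 higher and 18 lower in luminal cells, 3 higher and 1 lower in proximal cells, 4 higher and none lower in basal cells, and none in macrophages. Of all genes tested, DESeq2 called 1853 in luminal, 270 in proximal and 153 in basal cells. In luminal cells calls went in both directions among all genes as well as in these lists. The median log2 change of the further genes was 0.03 in luminal, 0.39 in proximal and 0.42 in basal cells.

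The other folding genes of luminal cells included the largest rise of any list. Ero1a, an oxidase that recharges the disulfide isomerases, stood at 12.2 and 6.08 CPM in sham and 69.5 and 71.0 CPM in te2 (log2 change 2.99 ± 0.22, adjusted p = 6.59e-07). Prdx4, a peroxidase that also feeds oxidizing power to the isomerases, stood at 20.9 and 30.9 CPM in sham and 100.3 and 100.0 CPM in te2 (log2 change 1.93 ± 0.17, adjusted p = 2.85e-06). Dnajc10, a J-domain reductase that prepares chains for degradation, stood at 879 and 849 CPM in sham and 264 and 285 CPM in te2 (log2 change -1.65 ± 0.13, adjusted p = 8.51e-07). Ero1a was also higher in proximal cells (3.75 ± 0.65), where sham replicate 1 had no UMI of it, and Dnajc10 was lower in macrophages (log2 change -2.45 ± 0.50, adjusted p = 0.0191). The macrophage call of Dnajc10 was lost under 5 alternatives and held under 9. A luminal profile scaled to the Sbp and Spink1 counts made up 8.97% and 15.0% of macrophage UMIs in sham and 0.724% and 2.15% in te2. In all, 8 of 21 genes of this list were higher and 2 lower in luminal cells, where 18% and 14.1% of all genes tested were.

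Among 16 other stress sensors and targets tested in luminal cells, 1 was higher and 5 lower, beside 18% higher and 14.1% lower of all genes. Bhlha15 (Mist1), a transcription factor of secretory cells, fell from 405 and 402 CPM in sham to 70.9 and 88.9 CPM in te2 (log2 change -2.33 ± 0.14, adjusted p = 9.48e-08). Creb3l2, an ER-bound factor that raises secretory genes, fell from 106 and 106 CPM in sham to 61.0 and 50.1 CPM in te2 (log2 change -0.94 ± 0.14, adjusted p = 0.000224). The other 3 lower genes were Creb3l1 (-2.93 ± 0.57) and the sensor genes Eif2ak3 (PERK, -0.82 ± 0.23) and Ern1 (IRE1, -0.58 ± 0.21), whereas Tmbim6, a membrane protein that limits cell death under ER stress, was higher (log2 change 0.81 ± 0.14, adjusted p = 0.000731). DESeq2 called 1 gene of this list higher and 3 lower in luminal cells. Other alternatives were not followed for Creb3l1, Eif2ak3 and Ern1. In proximal cells Bhlha15 was lower (35.9 and 137 CPM in sham and 58.9 and 60.1 CPM in te2; log2 change -0.94 ± 0.27, adjusted p = 0.0103), but without sham replicate 2 its change was 0.78, and its call was lost under another 6 of 16 alternatives. Nupr1, a small stress-induced nuclear protein, was higher in proximal (log2 change 1.22 ± 0.31, adjusted p = 0.004) and basal cells (log2 change 2.42 ± 0.32, adjusted p = 5.3e-07), with 118 and 149 CPM in sham and 589 and 915 CPM in te2 in the latter. The proximal call was lost under 4 of 17 alternatives, those with DESeq2 (adjusted p = 0.171), thinned sums (0.0506), sham replicate 1 left out (log2 change 0.74, adjusted p = 0.186) or te2 replicate 2 left out (log2 change 0.80, adjusted p = 0.41). The basal one was lost when cells needed 2 gate UMIs and could pass no second gate (0.52, adjusted p = 0.648). Creb3l2 was lower in basal cells (log2 change -1.18 ± 0.33, adjusted p = 0.0154), but without sham replicate 2 its change was 0.01, and its call was lost under another 5 of 16 alternatives.

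The degradation list held 3 higher and 5 lower of 16 genes in luminal cells, beside 18% higher and 14.1% lower of all genes tested. Syvn1, the ubiquitin ligase of the main degradation complex, fell from 72.3 and 74.1 CPM in sham to 29.1 and 31.7 CPM in te2 (log2 change -1.26 ± 0.14, adjusted p = 2.22e-05). Derl3 fell from 54.1 and 32.3 CPM in sham to 18.0 and 15.4 CPM in te2 (log2 change -1.36 ± 0.23, adjusted p = 0.000544); it is also a plasma cell marker, and without the cells with immunoglobulin UMIs the change was -1.36 (adjusted p = 0.000379). Faf2 was higher (0.66 ± 0.14). In proximal cells 4 of 15 were higher, among them the lectin gene Os9 (0.89 ± 0.22) and the mannosidase-like Edem2 (1.09 ± 0.27), and none was lower. DESeq2 called none of them in proximal cells. The call of Os9 was lost under 5 alternatives and held under 12, and that of Edem2 was lost under 3 and held under 13. Of all genes tested in proximal cells, 5.53% were higher and 4.78% lower.

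In the glycosylation list Stt3b, a catalytic subunit of the oligosaccharyltransferase, rose in luminal cells from 97.8 and 81.5 CPM in sham to 191 and 178 CPM in te2 (log2 change 1.05 ± 0.14, adjusted p = 7.2e-05) and in proximal cells from 83.7 and 85.1 CPM in sham to 239 and 287 CPM in te2 (log2 change 1.63 ± 0.26, adjusted p = 7.55e-07). Magt1, an accessory subunit of the complex that holds Stt3b, fell in luminal cells from 263 and 241 CPM in sham to 123 and 126 CPM in te2 (log2 change -1.02 ± 0.13, adjusted p = 4.56e-05). Dpm3, a subunit of the enzyme that makes the mannose donor, was lower in luminal (-0.54 ± 0.13) and proximal cells (-0.81 ± 0.20). Its proximal call was lost under 5 alternatives and held under 12. Among 22 other targeting genes 6 were higher in luminal cells, led by the membrane insertase subunits Emc6 (1.09 ± 0.14) and Emc2 (1.07 ± 0.16), and 4 were lower, led by the SRP protein gene Srp54a (-1.01 ± 0.16). Of all genes tested in luminal cells, 18% were higher and 14.1% lower.

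Of 39 genes of the coats and cargo receptors that carry proteins between ER and Golgi, 8 were higher and 8 lower in luminal cells, shares near the 18% and 14.1% of all genes. Cope, a subunit of the COPI coat, rose from 101 and 93.1 CPM in sham to 172 and 178 CPM in te2 (log2 change 0.85 ± 0.13, adjusted p = 0.000214), and the small GTPase gene Arf5 by 0.95 ± 0.13. Mcfd2, part of a cargo receptor for glycoproteins, fell from 54.5 and 47.1 CPM in sham to 25.3 and 25.8 CPM in te2 (log2 change -0.98 ± 0.16, adjusted p = 0.00033). In proximal cells 7 of the 39 were higher and none lower, led by the COPI gene Copb2 (log2 change 1.13 ± 0.24, adjusted p = 0.000251), and in basal cells 7 of 37 were higher and none lower, led by Arf5 (log2 change 1.59 ± 0.29, adjusted p = 0.00018). The shares of all genes higher and lower were 5.53% and 4.78% in proximal and 4.94% and 2.77% in basal cells. DESeq2 called 1 gene of this list higher in proximal cells and 2 higher in basal cells. The proximal call of Copb2 was lost under 3 alternatives and held under 14.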

How the data were processed

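The authors deposited raw UMI counts of each gene in each cell. The submitters' processing notes list Seurat 5.0.1, R 4.3.2, bustools 0.39.4, kallisto 0.46.1 and the build GRCm39, with no role for any of them. The 4 tables hold 11245 cells, with totals of 3999690 and 5513275 UMIs for sham and 12259610 and 13134017 for te2, and a gene absent from a table was entered as 0. Class sums were tested over all genes with edgeR 4.0.16 (TMM, filterByExpr, two-sided, FDR 0.05), after a test on simulated data. Levels and differences of response came from 1 model with terms for library, class and te2 within class. Alternatives were DESeq2 1.42.0, other scalings, filters, gates and depths, doublets found by scrublet left out (112 of 8091 cells, scanpy 1.11.5), a replicate block and each library left out. Another 2 were chosen after seeing the data: cells with immunoglobulin UMIs left out, and a luminal profile subtracted. With 2 animals a group, the smallest exact permutation p is 0.333. In the fits of a single class the p-values measure the spread between these animals. In the joint model the library terms take up differences between animals. Its p-values measure the spread left among the class sums within libraries, pooled over the 5 classes. The members and lists were chosen with earlier results of these data known. Values per library are given for up to 5 called members of smallest p per direction and class, for 22 members in luminal and proximal cells whatever their p, and for up to 3 genes per further list. Members named beyond these, and the genes that complete a count, were chosen after their values were seen.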

Additional observations from a re-analysis of the deposited data

Results flagged for a closer look

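The te2 responses of 7 genes differed between luminal and proximal cells by a test of the difference itself, each lower in luminal cells. The log2 differences were -1.43 for P4hb, -1.70 for Spcs3, -1.12 for Sec61b, -1.03 for Hspa5, -1.46 for Atf4, -1.004 for Calr and -0.83 for Sec61a1, in the joint edgeR model of 2 animals a group. No alternative turned the direction of any of the 7. With all 4 libraries kept, P4hb and Sec61b were called under every setting, and Spcs3 under every one where it could be tested. Each of the 7 lost its call when some single library was left out, in all 7 cases te2 replicate 1 among them. Over all alternatives the call was lost under 11 of 16 for Sec61a1, 8 of 16 for Hspa5, 7 of 16 for Calr and 6 of 15 for Atf4.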

How the results depend on the processing

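The luminal count (20) stayed between 16 and 22 under all 16 alternatives. Its lower part (5) was 2 without te2 replicate 1, 8 without sham replicate 2 and 7 without te2 replicate 2. For the other counts the cause of a change was not tested. With DESeq2 the count went from 17 to 9 in proximal and from 14 to 6 in basal cells. Thinned sums, where fewer genes could be tested, gave 4 in proximal cells, 8 in basal cells, 10 for levels in te2 and 2 for the response difference. Gates at 2 times their threshold gave 9 in basal cells and 3 for the response difference. Without the low-count filter the count was 4 in fibroblasts and 4 for the response difference. Without TMM factors it was 2 in fibroblasts, 14 for levels in sham and 3 for the response difference. In fibroblasts it was also 3 at 10% mitochondrial counts, 2 with 2 gate UMIs, 3 without doublets and 2 with the luminal profile subtracted, against 1. With each library left out in turn the counts ranged from 17 to 22 in luminal, 4 to 17 in proximal, 5 to 9 in basal, 1 to 3 in fibroblasts and 0 to 1 in macrophages, from 22 to 24 for levels in sham, 3 to 26 for levels in te2 and 0 to 4 for the response difference. A replicate block gave 22 in luminal, 11 in proximal, 9 in basal, 1 in fibroblast and 0 in macrophage sums. Over all genes of a class, animals with the same number did not deviate together (correlations of 0.017, 0.004, -0.021, -0.051 and -0.002). Such a correlation cannot show whether the number marks a pairing that touches only some genes, and the labels do not say. The sign turned under some settings for 12 values. Pdia4 (luminal) was 0.01 and became -0.0380 (at least 1000 UMIs), -7.56e-05 (at most 10% mitochondrial), -0.0590 (gates at 2 times), -0.0227 (2 gate UMIs), -0.0142 (thinned sums), and lay between -0.174 and 0.241 with each library left out. Creld2 (luminal) was 0.19 and lay between -0.136 and 0.598 with each library left out. Hyou1 (luminal) was -0.03 and became 0.0213 (no filter), 0.0202 (no TMM), 0.0301 (at least 1000 UMIs), 0.000226 (at most 10% mitochondrial), and lay between -0.200 and 0.161 with each library left out. Xbp1 (proximal) was -0.01 and became 0.0517 (DESeq2), 0.0962 (no filter), 0.00397 (at least 1000 UMIs), 0.133 (at most 10% mitochondrial), 0.0992 (gates at 2 times), 0.00980 (2 gate UMIs), 0.0490 (thinned sums), 0.0732 (replicate block), 0.0328 (profile subtracted), and lay between -0.136 and 0.600 with each library left out. Atf4 (proximal) was 0.69 and lay between -0.0702 and 1.02 with each library left out. Bhlha15 (proximal) was -0.94 and lay between -1.19 and 0.783 with each library left out. Creb3l2 (basal) was -1.18 and lay between -1.40 and 0.00990 with each library left out. Dad1 (level luminal minus proximal, sham) was 0.04 and became -0.0823 (DESeq2), -0.0418 (no filter), -0.774 (no TMM), -0.0692 (gate genes out of scaling), -0.0470 (at most 10% mitochondrial), and lay between -0.0434 and 0.0994 with each library left out. Pdia3 (level luminal minus proximal, sham) was -0.01 and became 0.211 (gates at 2 times), 0.0156 (doublets out), 0.0594 (thinned sums), 0.0135 (immunoglobulin cells out), 0.00487 (profile subtracted), and lay between -0.243 and 0.228 with each library left out. Dad1 (level luminal minus proximal, te2) was 0.40 and became -0.148 (no TMM). Pdia3 (level luminal minus proximal, te2) was 0.16 and became -0.384 (no TMM). P4hb (level luminal minus proximal, te2) was 0.31 and became -0.242 (no TMM). The sham sums of proximal and basal cells hold the fewest UMIs of those classes, so counts of a few UMIs stand behind some sham values there.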
